A study of Mus musculus with 6 samples.

Results

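The genes of respiratory complex I were examined in hearts of VAChT KDHOM and WT mice, on all probe sets whose single annotated gene symbol starts with Nduf. There were 48 such probe sets, covering 43 genes, among 35556 probe sets and 19938 genes with a probe set of 1 symbol. They fall into 7 probe sets of 6 core subunits, 34 probe sets of 30 accessory subunits and 7 probe sets of 7 assembly factors. The core subunits described are Ndufs1, Ndufs3, Ndufs7, Ndufs8, Ndufv1 and Ndufv2. A further 3 probe sets, listed with several symbols (Ndufs5 with Ndufs5-ps, and Ndufb4 with Ndufb4b at both others), were left out of the counts.

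RNA came from male mice of 3 months of age that had received no treatment. The tested animals were homozygous for a knockdown of VAChT, the vesicular acetylcholine transporter that loads acetylcholine into synaptic vesicles (VAChT KDHOM, 3 arrays), and the others were WT (3 arrays). Both groups are labelled C57BL/6, while the study's methods give a mixed background with only 3 generations of backcrossing. Each Mouse Gene 1.0 ST array held RNA pooled from 2 samples, and p-values below rest on the variation among 3 pools per genotype. The tissue is called heart in the sample records and ventricle in the study's methods. The question of the comparison is which transcripts differ in the myocardium when cholinergic tone is chronically low.

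Complex I, or NADH:ubiquinone oxidoreductase, takes electrons from NADH, passes them along a chain of iron-sulfur clusters to ubiquinone and pumps protons out of the mitochondrial matrix. It has an L shape, with a matrix arm that carries the flavin and the clusters and a membrane arm that holds the proton pumps. The core subunits carry out the chemistry and are conserved from bacteria, accessory subunits surround them, and assembly factors help to build the enzyme without staying in it. The heart, which depends on oxidative phosphorylation, is rich in this complex, and it is one of the known sites of superoxide production in mitochondria.

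The targeted gene, Slc18a3, read 7.24, 6.77 and 7.58 (log2 signal) on the arrays labelled VAChT KDHOM 1, 2 and 3, against 7.31, 7.42 and 7.11 on those labelled WT 1, 2 and 3. It did not separate the groups (log2 difference, VAChT KDHOM minus WT, -0.08, standard error 0.20, limma adjusted p = 0.873), and the sources used here do not place its probes on the modified allele. Both arrays numbered 2 went against the rest of their group at Ogdhl, an oxoglutarate dehydrogenase-like gene, which read 7.06, 10.17 and 7.09 on VAChT KDHOM 1, 2 and 3 and 9.60, 7.21 and 10.33 on WT 1, 2 and 3. As labelled, Ogdhl was 1.92-fold lower in VAChT KDHOM, while the study lists a far larger decrease. Whether the labels of the arrays numbered 2 are exchanged was not tested. If they were, each labelled group would mix both genotypes, and the differences below would not be those of the genotypes. Arrays are therefore named by their labels, and every difference below rests on those labels. The members' counts and class medians are also given without both arrays numbered 2. Array medians lay at 6.84 to 6.89 in VAChT KDHOM and 6.91 to 6.98 in WT, and pairs of arrays correlated at 0.982 to 0.994. All 6 ventricular cardiomyocyte markers were far above background. Of the defining markers of other cell types, the endothelial, fibroblast and macrophage lists (3 of 3 genes each) and the atrial list (4 of 4) also read above the 95th percentile of olfactory receptor probe sets (6.50), whose signal was taken as background.

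All 48 complex I probe sets read above that percentile, the dimmest being Ndufaf5, a hydroxylase that modifies Ndufs7, at a mean of 7.11. Their upstream sequences are shown for what the genes share beyond their names. NRF1, nuclear respiratory factor 1, is a transcription factor known for its sites in front of nuclear genes of the respiratory chain. In the 250 bases upstream of RefSeq gene starts (GRCm38.p6), its motif, GCGC followed by any base and then TGCGC, searched on both strands, was found for 6 of the 38 member genes with a sequence (15.8%), against 4.23% of all 27025 genes. The ETS motif CCGGAAG was found for 4 of 38 (10.5%, against 7.83% of all genes) and the YY1 motif AAGATGGCG for none of 38 (0.71% of all genes). No member gene had matches to more than 1 of these motifs. The NRF1 matches are printed in capitals with 6 bases on each side, 5′ to 3′ on the strand of the gene.
Ndufa11, chr17:56717696-56717717, plus strand: cactgcGCGCATGCGCgcacgc
Ndufa5, chr6:24527701-24527722, minus strand: tgagctGCGCAGGCGCaaatct
Ndufa8, chr2:36049353-36049374, minus strand: agcagtGCGCTTGCGCgtcgct
Ndufaf4, chr4:24897964-24897985, plus strand: atgtctGCGCATGCGCctgtgc
Ndufs5, chr4:123718269-123718290, minus strand: cttgctGCGCAGGCGCagaccc
Ndufs6, chr13:73328483-73328504, minus strand: tgctgtGCGCCTGCGCcggcac
They lay between 16 bases (Ndufs6) and 190 bases (Ndufa5) upstream of a start. Ndufa5 has another listed start, and its match lies 26 bases upstream of that one. All but that of the assembly factor Ndufaf4 belong to accessory subunits, and none of these genes passed an unadjusted p of 0.05 between the groups. The upstream sequences of Ndufa1, the member with the widest difference between group means, and of Ndufaf1, which the study selected and whose value depends most on both arrays numbered 2, are printed whole, with the ETS match of Ndufaf1 in capitals.
Ndufa1, chrX:37191239-37191488, minus strand: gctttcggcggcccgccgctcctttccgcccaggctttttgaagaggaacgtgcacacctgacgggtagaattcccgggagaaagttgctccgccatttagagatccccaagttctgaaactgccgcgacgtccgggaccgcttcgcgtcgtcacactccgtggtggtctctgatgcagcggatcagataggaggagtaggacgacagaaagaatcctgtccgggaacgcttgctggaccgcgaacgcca
Ndufaf1, chr2:119662835-119663084, minus strand: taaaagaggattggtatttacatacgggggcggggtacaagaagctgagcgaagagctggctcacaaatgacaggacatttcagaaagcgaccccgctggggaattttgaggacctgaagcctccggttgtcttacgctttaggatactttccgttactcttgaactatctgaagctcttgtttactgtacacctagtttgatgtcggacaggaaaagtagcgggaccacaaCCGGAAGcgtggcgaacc
No NRF1 or YY1 match was found in either window, and no ETS match in that of Ndufa1.

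Between the arrays labelled VAChT KDHOM and those labelled WT, complex I transcripts differed little. The median log2 difference of the 48 probe sets was 0.03, against -0.02 over all 35556 probe sets, and the extremes were -0.25 (Ndufs7) and 0.27 (Ndufa1). Of the 48, 1 was higher and none was lower at an unadjusted p of 0.05 in limma, against 11.7% of all probe sets (3.93% higher and 7.81% lower) and 9.93% of those with 1 symbol. No member passed an adjusted p of 0.05, as against 1 probe set in all (0.00281%), and none passed an unadjusted p of 0.05 together with 1.3-fold, the thresholds of the study, as against 3.79% of all. This count of 0 became 1, Ndufaf1, without the array WT 2 and without both arrays numbered 2, where 7.87% of all probe sets passed both thresholds. The lowest adjusted p among members was 0.409. For 38 of the 48 (79.2%, against 52.9% of all probe sets), the 95% interval of the difference lay within 1.3-fold in either direction, which is 0.38 on the log2 scale. Standard errors ran between 0.08 and 0.20.

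**Figure D1:**
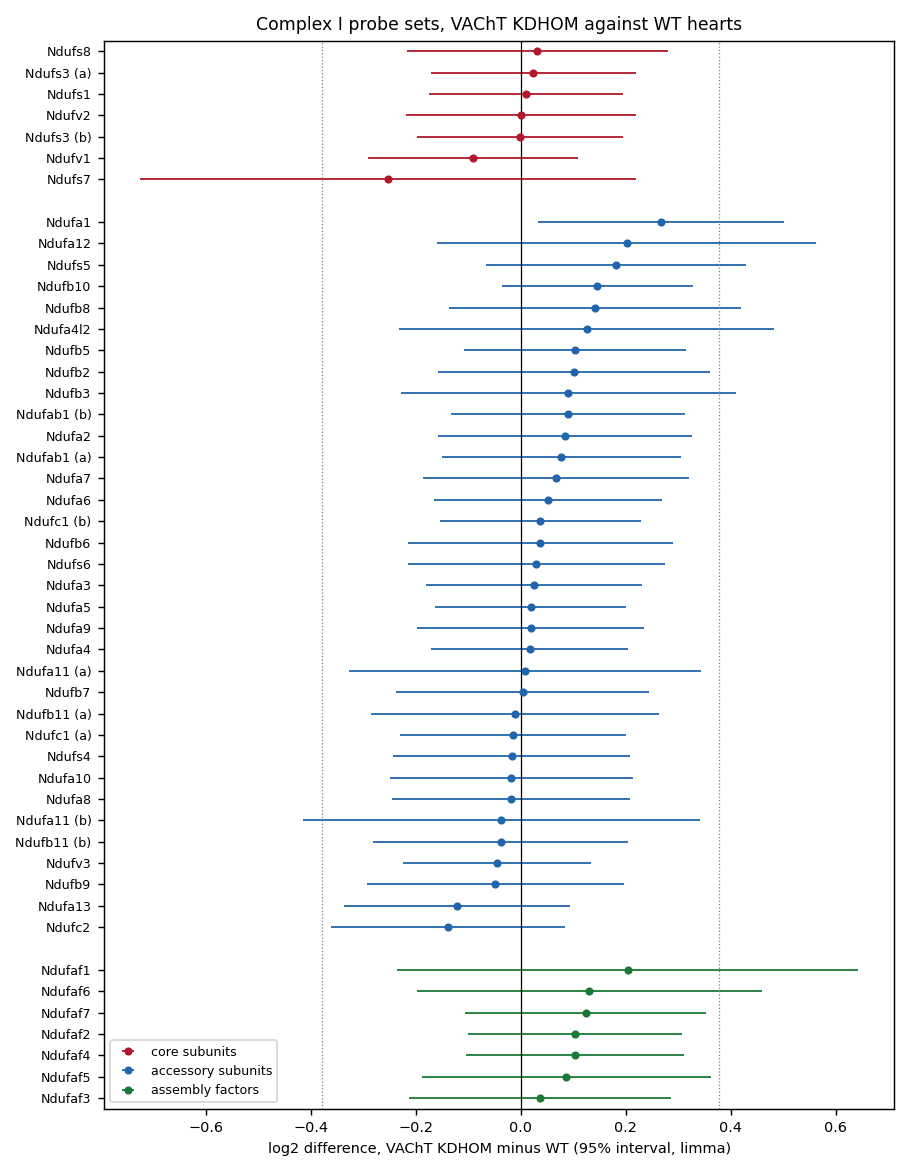
Log2 difference of signal, VAChT KDHOM minus WT, for the 48 complex I probe sets (points) with 95% intervals from limma (bars), grouped as core subunits, accessory subunits and assembly factors; the dotted lines mark 1.3-fold and (a) and (b) mark probe sets of the same gene. Only the interval of Ndufa1 lies wholly on one side of 0, and 10 intervals cross a dotted line.

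The sign of most differences was not stable. On the labelled arrays 33 of the 48 lay above 0 (68.8%, against 45.8% of all probe sets), but 15 did without the array VAChT KDHOM 3 and 44 without VAChT KDHOM 1. Centring each array on its median adds the same amount to every log2 difference. It put 44 members above 0 and moved the median over all probe sets to 0.05. Without both arrays numbered 2, the median of the members was 0.02, and 2 members, Ndufaf1 and Ndufa1, were higher at an unadjusted p of 0.05, while none was lower. Among all probe sets 10.6% passed there (4.46% higher and 6.16% lower), and no probe set passed an adjusted p of 0.05 in limma.

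Core subunits showed the smallest median of the 3 classes, -0.00013 over 7 probe sets, with 3 above and 4 below 0 and none past an unadjusted p of 0.05. Their median was -0.03 without both arrays numbered 2, with 2 above 0 and again none past that p. Ndufv1, which binds NADH and the flavin, read 12.45, 12.61 and 12.66 on VAChT KDHOM 1, 2 and 3, against 12.70, 12.66 and 12.62 on WT 1, 2 and 3. Its log2 difference was -0.09 (standard error 0.09, limma adjusted p = 0.650), and the groups overlapped through VAChT KDHOM 3. Ndufv2, a partner of Ndufv1 with an iron-sulfur cluster, read 12.42, 12.63 and 12.67, against 12.52, 12.64 and 12.57, a difference of -0.00013 (standard error 0.09). Ndufs1, the largest subunit, carries several clusters along the matrix arm. It read 12.25, 12.26 and 12.39 in VAChT KDHOM and 12.28, 12.33 and 12.27 in WT, a difference of 0.01 (standard error 0.08).

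The other core subunits line the path to ubiquinone. Ndufs8, which holds a pair of iron-sulfur clusters, read 11.96, 12.26 and 12.27 on VAChT KDHOM 1, 2 and 3, against 12.19, 12.05 and 12.15 on WT 1, 2 and 3, a difference of 0.03 (standard error 0.11). The 2 probe sets of Ndufs3 gave 0.02 and -0.0011 (standard error 0.08 for each), so both lay within their error of 0. Ndufs7 holds the last cluster before ubiquinone. It read 13.31, 14.08 and 14.05 on VAChT KDHOM 1, 2 and 3 and 14.09, 14.12 and 13.99 on WT 1, 2 and 3. The low mean of VAChT KDHOM came from 1 array: its log2 difference of -0.25 (standard error 0.20, limma adjusted p = 0.596) became 0.0012 without VAChT KDHOM 1. For Ndufv1, Ndufv2, Ndufs1, Ndufs3 and Ndufs8 the 95% interval reached no further than -0.29 on the low side and 0.28 on the high side, and for Ndufs7 it ran between -0.73 and 0.22.

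All 7 core probe sets had their lowest value on VAChT KDHOM 1, which was the lowest array for 19.3% of all probe sets. This array also stood low at other bright genes. The 6 ventricular cardiomyocyte markers averaged 13.20 on it, against 13.95 and 13.94 on VAChT KDHOM 2 and 3 and 13.87 to 13.89 on the WT arrays. Over all probe sets, the median gap between VAChT KDHOM 1 and the mean of the other 5 arrays was -0.03 at a mean signal between 9 and 11, -0.18 between 12 and 13, -0.34 between 13 and 14, and -0.99 for the 60 probe sets at 14 and over. Members followed the same order, with medians of -0.03 (12 probe sets), -0.18 (18) and -0.51 (2) in the first 3 of these ranges, and Ndufs7, the brightest member, lay at -0.76. In whole-tissue RNA, fewer cells of a type and less RNA per cell cannot be told apart, and what part the state of this array had in the values of the members was not tested.

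**Figure D2:**
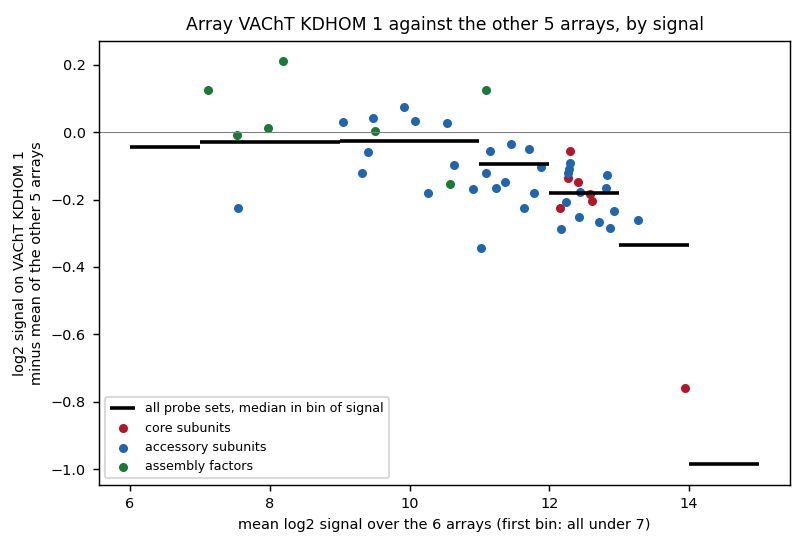
Log2 signal on the array VAChT KDHOM 1 minus the mean of the other 5 arrays (vertical axis) against mean log2 signal (horizontal axis) for the 48 complex I probe sets (points, by class), with the median of all probe sets in each range of signal (black lines; the first line stands for all under 7 and the last for 14 and over). Most members above a signal of 11 lie below 0, and the lowest point, at -0.76, is Ndufs7.

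Accessory subunits had a median log2 difference of 0.03 over 34 probe sets, with 23 above and 11 below 0. Only 1 of them passed an unadjusted p of 0.05, with a higher level in VAChT KDHOM. The class had a median of 0.02 without both arrays numbered 2, with 21 above 0 and the same member past that p. This was Ndufa1, a small subunit of the membrane arm that is needed for its assembly. It read 10.11, 10.20 and 10.33 on VAChT KDHOM 1, 2 and 3 and 9.86, 10.09 and 9.90 on WT 1, 2 and 3. Every VAChT KDHOM array lay above every WT array, with WT 2 just below the lowest of them. The log2 difference was 0.27 (standard error 0.10, 95% interval 0.03 to 0.50), with an unadjusted p of 0.030 and an adjusted p of 0.409 from limma. That unadjusted p rose to 0.064 without VAChT KDHOM 2, 0.095 without VAChT KDHOM 3, 0.085 without WT 1 and 0.086 without WT 3, and to 0.052 with the methods' analysis of variance. Without both arrays numbered 2 the difference was 0.35 (standard error 0.13).

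The groups also failed to overlap at Ndufb10, a membrane arm subunit that is named here after its values were seen. It read 9.99, 9.99 and 10.02 on VAChT KDHOM 1, 2 and 3, against 9.79, 9.83 and 9.94 on WT 1, 2 and 3, a log2 difference of 0.15 (standard error 0.08, limma adjusted p = 0.477). The VAChT KDHOM arrays were close together and the WT arrays spread more widely. Ndufa1 and Ndufb10 were the only 2 of the 48 members without overlap (4.17%, against 19.2% of all probe sets, 6.25% higher and 12.9% lower). Of the probe sets left out for several symbols, those of Ndufb4 with Ndufb4b overlapped, and that of Ndufs5 with Ndufs5-ps did not. The latter differed by 0.23 (standard error 0.11, limma adjusted p = 0.449). The member probe set of Ndufs5 differed by 0.18 (standard error 0.11), with overlap.

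Ndufa12, a late-added subunit of the matrix arm, had the second highest difference of its class, 0.20 (standard error 0.15). It read 10.57, 10.61 and 10.76 on VAChT KDHOM 1, 2 and 3 and 10.09, 10.58 and 10.66 on WT 1, 2 and 3, and only WT 1 stood low. Without WT 1 its difference was 0.03. At the other end, Ndufc2, of the membrane arm, read 13.05, 13.19 and 13.35, against 13.35, 13.35 and 13.31, which is -0.14 on the log2 scale (standard error 0.10, adjusted p = 0.553 in limma). The array VAChT KDHOM 3 lay at the WT level, and without it the difference was -0.22 with an unadjusted p of 0.048 and an adjusted p of 0.753 from limma. Ndufa13, a membrane arm subunit also known as GRIM-19, had a difference of -0.12 (standard error 0.09), and its lowest value was again on VAChT KDHOM 1.

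**Figure D3:**
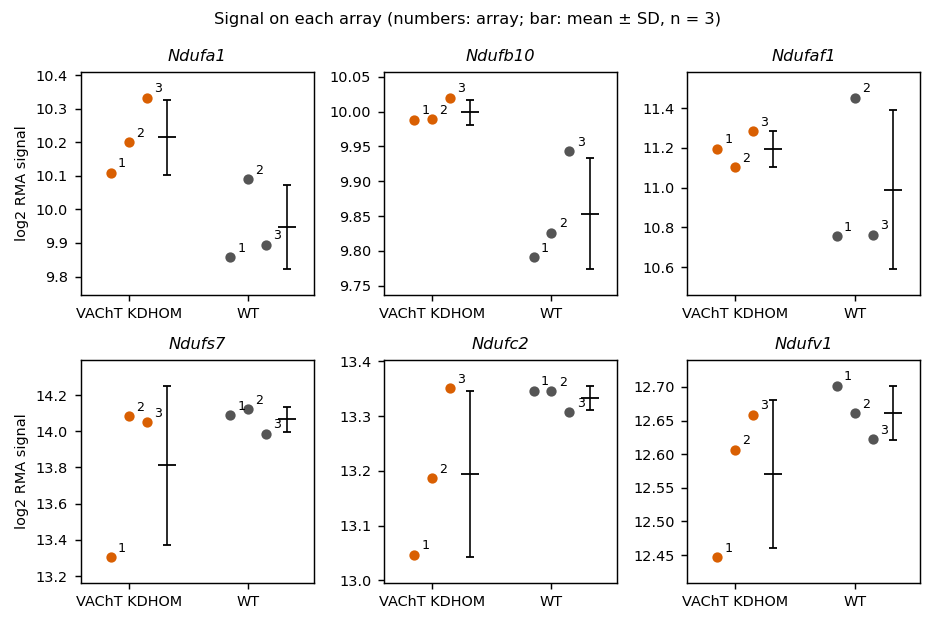
Log2 signal on each array (points, numbered as the arrays are labelled) for Ndufa1, Ndufb10, Ndufaf1, Ndufs7, Ndufc2 and Ndufv1, VAChT KDHOM on the left and WT on the right, with mean ± SD (black, n = 3); each panel has its own vertical scale. The groups are apart for Ndufa1 and Ndufb10, Ndufaf1 is high on WT 2, and Ndufs7 is low on VAChT KDHOM 1 alone.

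In all, 5 genes, Ndufs3 and 4 of accessory subunits, had 2 probe sets each, and copies of a gene elsewhere in the genome could take part of such a signal. The accessory ones gave 0.0074 and -0.04 for Ndufa11, of the membrane arm, 0.08 and 0.09 for Ndufab1, the mitochondrial acyl carrier protein, -0.01 and -0.04 for Ndufb11, and -0.01 and 0.04 for Ndufc1. Members of each pair differed by less than their standard errors, which were 0.08 to 0.16. Ndufa4 was counted by its symbol, although its protein is now placed in cytochrome c oxidase, and had a difference of 0.02 (standard error 0.08). Its paralog Ndufa4l2, known as a hypoxia-induced gene, read 7.36, 7.50 and 7.97 on VAChT KDHOM 1, 2 and 3, against 7.47, 7.52 and 7.45 in WT. Only VAChT KDHOM 3 stood high there.

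Members were also split by place in the enzyme. The 16 matrix arm probe sets had a median of 0.02 (-0.25 to 0.20), with 10 above 0, and the 21 membrane arm probe sets a median of 0.0074 (-0.14 to 0.27), with 12 above 0. Both members without overlap, Ndufa1 and Ndufb10, are in the membrane arm. No test of the 2 arms against each other was made.

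Assembly factors had the highest median of the 3 classes, 0.10, and all 7 lay above 0, though none passed an unadjusted p of 0.05. Without VAChT KDHOM 3, 4 of the 7 lay above 0 and the median was 0.04. Leaving out both arrays numbered 2 gave a median of 0.18, with 6 of the 7 above 0 and Ndufaf1 past that p. Ndufaf1, a chaperone of the membrane arm intermediate, is among the genes that the study selected on these arrays. It read 11.20, 11.10 and 11.28 on VAChT KDHOM 1, 2 and 3, against 10.76, 11.45 and 10.76 on WT 1, 2 and 3. The array WT 2 was the highest of all 6, so the groups overlapped as labelled. The study lists a larger increase of this gene than the 1.15-fold of the labelled groups. Their log2 difference was 0.20 (standard error 0.19, limma adjusted p = 0.644). Without WT 2 it was 0.43, and without both arrays numbered 2 it was 0.48 (standard error 0.12), with an unadjusted p of 0.0068 and an adjusted p of 0.459 from limma. As the study chose this gene on the same arrays, its direction is not independent evidence.

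The remaining assembly factors differed by 0.04 to 0.13. Ndufaf6, a member of a family related to phytoene synthases, read 7.53, 7.38 and 7.89 on VAChT KDHOM 1, 2 and 3, against 7.35, 7.53 and 7.52 on WT 1, 2 and 3, a difference of 0.13 (standard error 0.14). It was high only on VAChT KDHOM 3. Ndufaf7, an arginine methyltransferase, differed by 0.12 (standard error 0.10), and Ndufaf2, a paralog of Ndufa12, by 0.10 (standard error 0.09). Ndufaf4, which works with Ndufaf3 in building the quinone-binding part, differed by 0.10 (standard error 0.09). Ndufaf5 differed by 0.09 (standard error 0.12) and Ndufaf3 by 0.04 (standard error 0.11).

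Of 21 other complex I genes that are not named Nduf, 13 had a probe set with a single symbol, all of them assembly or maturation factors. The subunits encoded in mitochondrial DNA were not analysed here. The median of the 13 was 0.10, and all 13 lay above 0, as did 45.8% of all probe sets. There were 12 of 13 above 0 without WT 1, without VAChT KDHOM 3 or after a further quantile normalization. WT 1 was lowest for 10 of the 13 and VAChT KDHOM 3 highest for 10. Their median signal was 9.39. Among all probe sets between 9 and 11, the median gap from the other 5 arrays was -0.10 on WT 1 and 0.11 on VAChT KDHOM 3. The part of this in the signs was not tested. Without both arrays numbered 2 the median of the 13 was 0.19. Nubpl and Lyrm2, 2 of the 13, passed an unadjusted p of 0.05 in limma there (10.6% of all probe sets). On all 6 arrays the single gene past an unadjusted p of 0.05 (11.7% of all probe sets) was Nubpl, which delivers iron-sulfur clusters to complex I. It read 6.92, 6.82 and 6.84 on VAChT KDHOM 1, 2 and 3 and 6.40, 6.58 and 6.60 on WT 1, 2 and 3, so that the groups did not overlap. Its log2 difference was 0.33 (standard error 0.09, unadjusted p = 0.0058, adjusted p = 0.409 from limma), at a signal close to background. The groups also did not overlap at Aifm1, Dmac2 and Timmdc1, which makes 4 of the 13, all higher in VAChT KDHOM. Among all probe sets, 19.2% did not overlap (6.25% higher). The smallest difference of the 13 was that of Tmem70, an assembly factor of ATP synthase and complex I, at 0.06 (standard error 0.10).

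Across the 6 arrays, the members followed a shared order. VAChT KDHOM 3 held the highest value for 34 of the 48 probe sets (70.8%, against 25.4% of all probe sets), and VAChT KDHOM 1 the lowest for 28 (58.3%, against 19.3%). Those shares over all probe sets are not matched for signal: 18416 probe sets read under 7, where no member lies. The median gap of VAChT KDHOM 3 from the mean of the other 5 arrays was -0.08 there. Between 9 and 11 it was 0.18 for members and 0.11 for all probe sets, between 11 and 12 it was 0.20 for members and 0.09 for all, and between 12 and 13 it was 0.12 for members and 0.08 for all. The mean signal of the 48 was 11.05, 11.17 and 11.29 on VAChT KDHOM 1, 2 and 3 and 11.13, 11.15 and 11.11 on WT 1, 2 and 3. The VAChT KDHOM arrays thus lay on either side of the WT arrays. The classes differed in where VAChT KDHOM 1 stood: it was lowest for 7 of 7 core and 21 of 34 accessory probe sets and for none of the 7 assembly factors, which are dimmer (median of the mean signals 8.19, against 12.41 for core and 11.54 for accessory subunits). For assembly factors the lowest array was WT 1 at 4 of 7.

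**Figure D4:**
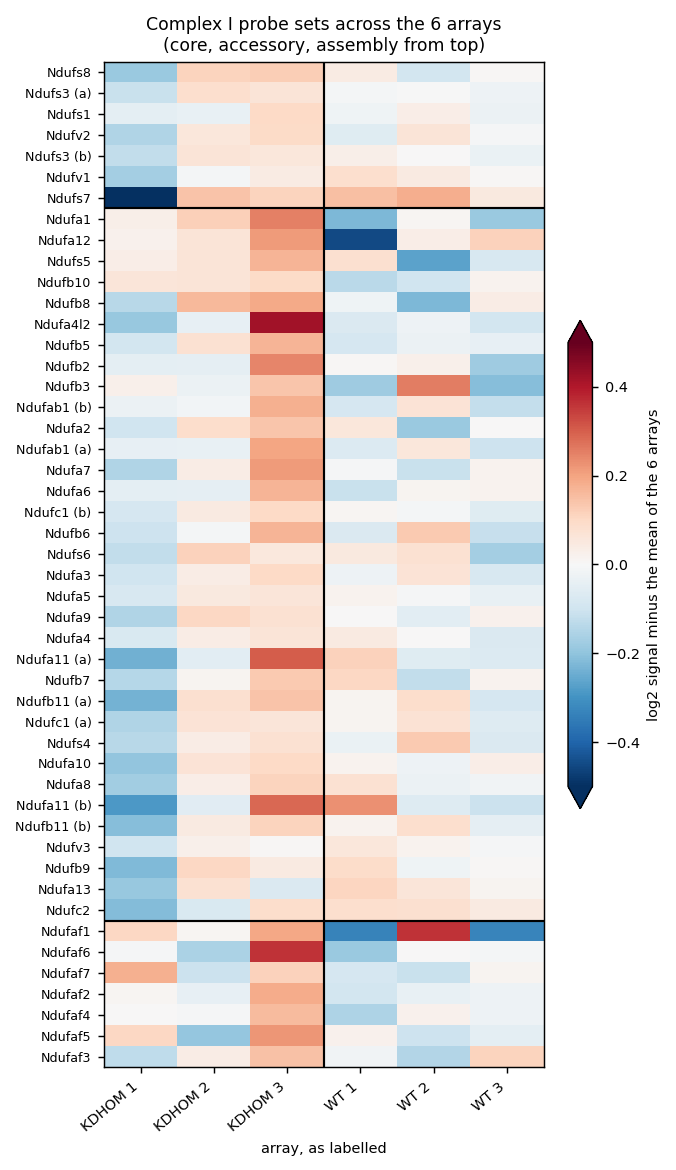
Deviation of each complex I probe set from its own mean over the 6 arrays (colour, log2; red high, blue low), with VAChT KDHOM arrays on the left and WT arrays on the right, and core, accessory and assembly probe sets from top to bottom. The column of VAChT KDHOM 3 is red for nearly all members and that of VAChT KDHOM 1 is blue for the core subunits and most accessory subunits.

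Nuclear genes of complexes II to V, the rest of the oxidative phosphorylation system, were compared for their profile over the arrays. Over 61 probe sets of 42 genes the median log2 difference was 0.01, and 1 probe set, of the ATP synthase subunit gene Atp5l, passed an unadjusted p of 0.05 (11.7% of all probe sets), with a higher level in VAChT KDHOM. Without both arrays numbered 2 the median was -0.02 and no probe set of this list passed. VAChT KDHOM 3 was highest for 28 of the 61 (45.9%) and VAChT KDHOM 1 lowest for 40 (65.6%). Of 4 genes of mitochondrial content outside the respiratory chain, 1 was higher at an unadjusted p of 0.05 in limma (3.93% of all probe sets). This was Tfam, which maintains mitochondrial DNA (log2 difference 0.30, standard error 0.10, limma adjusted p = 0.409). Citrate synthase (Cs) differed by 0.02 (standard error 0.08). The mean of the 4 genes was 10.72, 10.82 and 10.93 on VAChT KDHOM 1, 2 and 3, against 10.66, 10.78 and 10.72 on WT 1, 2 and 3.

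Of the other marker lists, the atrial and macrophage lists also set VAChT KDHOM 3 apart. On it the mean of the 4 atrial markers was 10.98, against 10.48 and 10.49 on VAChT KDHOM 1 and 2 and 10.24 to 10.52 on the WT arrays. Of 3 fast skeletal muscle markers, 2 (Actn3 and Tnni2) were lower at an unadjusted p of 0.05 in limma, as were 7.81% of all probe sets. The adjusted p-values from limma were 0.409 for Actn3 and 0.410 for Tnni2. The third, Myh4, read a mean of 6.02, below the background percentile of 6.50. The mean of the 3 markers was 6.68 to 6.78 in VAChT KDHOM and 6.84 to 7.10 in WT. Of 2 adipocyte markers 1, Plin1, was lower at that unadjusted p (limma adjusted p = 0.421). Adipoq, the other, read a mean of 5.92, also below that percentile. The 3 macrophage markers averaged 8.83 on VAChT KDHOM 3, against 8.32 to 8.59 on the other 5. Alas2, the one red cell marker measured with a single symbol, read 8.89, 9.83 and 10.03 on VAChT KDHOM 1, 2 and 3 and 8.65 to 9.31 in WT. The part of these lists in the complex I values was not tested.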

How the data were processed

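Heart RNA of VAChT KDHOM and WT mice was measured on 6 Mouse Gene 1.0 ST arrays, 3 per genotype as labelled, each with RNA pooled from 2 samples. The authors summarised the scanned probes with RMA in Partek, so the deposited values are log2 signals. RMA includes background correction and quantile normalization across arrays, which can even out shifts that affect most genes. The deposited arrays still differed in distribution, with medians of 6.84 to 6.89 in VAChT KDHOM and 6.91 to 6.98 in WT. The genome build behind them is not given in the sources used. No filter was applied to them. In GEO's platform annotation 21789 probe sets carry 1 symbol, 1621 carry several and 12146 are unlisted.

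A linear model of VAChT KDHOM minus WT was fitted to all 35556 probe sets in limma (version 3.58.1, R version 4.3.3; lmFit, then eBayes), and p-values were adjusted over the whole table (Benjamini-Hochberg). Signal was set against 1035 olfactory receptor probe sets (median 4.71). Precision is limited by the number of arrays. Medians of lists carry no test. Upstream sequences came from RefSeq (GRCm38.p6). The procedure was checked on simulated data.

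Members and lists were chosen with earlier results of these data known. Named with their values were the core subunits, Ndufaf1, members past an unadjusted p of 0.05, those with the 2 highest and 2 lowest differences in each class, the 3 with the widest range (Ndufs7, Ndufaf1 and Ndufa12), genes with several probe sets and, of the other complex I genes, those past that p and both extremes. Members outside this rule were picked after their values were seen. Alternatives were a further quantile normalization, median centring, a filter on dim probe sets, other variance moderation, array weights, the methods' analysis of variance, the replicate number as a block, 1 probe set per gene, other thresholds and arrays left out. Counting the 3 probe sets with several symbols, and requiring 1.3-fold with arrays left out, were added after seeing the data.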

Additional observations from a re-analysis of the deposited data

How the results depend on the processing

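The count of complex I probe sets past an unadjusted p of 0.05 was 1 (Ndufa1) on the values as deposited. It was 3 with each array centred on its median (Ndufa1, Ndufb10 and Ndufs5), 2 without both arrays numbered 2 (Ndufaf1 and Ndufa1), 0 with array weights, 0 with 1.3-fold required and 0 at an adjusted p of 0.05, where Benjamini-Hochberg adjustment of the limma fit was used. With 1.3-fold required it was 1, Ndufaf1, without WT 2 and without both arrays numbered 2, a pair of settings added after seeing the data. With 1 array left out it ran between 0 (without VAChT KDHOM 2, or without WT 3) and 3 (without WT 2). It was 1 in the other settings, but the 1 was Ndufb10 with the methods' analysis of variance, Ndufs5 without WT 1 and Ndufc2, lower, without VAChT KDHOM 3. Over all probe sets the count of 4174 ran between 2160 without WT 1 and 4658 without WT 3. It was 2502 after the filter on dim probe sets, where fewer were tested, and 2357 without VAChT KDHOM 3. The median of assembly factors ran between 0.04 and 0.21 with 1 array left out, that of accessory subunits between -0.02 and 0.10, that of core subunits between -0.04 and 0.06 and that of the other complex I genes between 0.07 and 0.15. The median of the other complex I genes was 0.19 without both arrays numbered 2.

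For same-numbered arrays, deviations from the means of the labelled groups correlated at 0.06, -0.12 and 0.13 for numbers 1, 2 and 3 over all probe sets. The labels state no pairing, and with 3 arrays per group these values cannot show whether arrays were paired. With the replicate number as a block the count stayed at 1, Ndufa1, and the class medians were as without it (core -0.00013, accessory 0.03, assembly 0.10).

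Of 23 named probe sets, 16 changed sign in at least 1 setting, each with a difference of at most 0.25 in size on the values as deposited, and the cause was not tested. With array weights Ndufs1 was at -0.017 and Ndufa11 (a) at -0.019. Median centring adds the same amount to every difference, so that differences just below 0 turn by construction: Ndufb11 was at 0.056 (a) and 0.028 (b), Ndufa11 (b) at 0.029, Ndufc1 (a) at 0.052, Ndufs3 (b) at 0.065 and Ndufv2 at 0.066. With a further quantile normalization Ndufaf3 was at -0.0037, Ndufb11 (a) at 0.0026, Ndufs3 (b) at 0.017 and Ndufv2 at 0.030. Without both arrays numbered 2, Ndufs3 (a) was at -0.0073, Ndufaf3 at -0.037, Ndufs8 at -0.055 and Ndufv2 at 0.0052. With 1 array left out, Ndufs7 ran between -0.39 and 0.0012 and Ndufs8 between -0.023 and 0.13. Ndufs1 ran between -0.037 and 0.036, Ndufs3 between -0.012 and 0.086 (a) and between -0.034 and 0.060 (b), and Ndufv2 between -0.049 and 0.076. Ndufa11 ran between -0.14 and 0.13 (a) and between -0.19 and 0.097 (b), and Ndufab1 (a) between -0.00098 and 0.13. Ndufb11 ran between -0.084 and 0.11 (a) and between -0.10 and 0.057 (b), and Ndufc1 between -0.053 and 0.057 (a) and between -0.0022 and 0.089 (b). Ndufaf3 ran between -0.028 and 0.11, Ndufaf5 between -0.0023 and 0.21 and Ndufaf6 between -0.017 and 0.24. The letters mark the probe sets of a gene in the order of their identifiers.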
